A study of Mus musculus with 39 samples.

Results

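The comparison described here is high-fat against low-fat feeding in mouse subcutaneous fat from Week 3 to Week 18. It used 12 of the 39 arrays of the series, chosen by their diet and time labels: 1 array of the high-fat diet (HFC) and 1 of the low-fat control diet (LFC) at each of Weeks 3, 6, 9, 12, 15 and 18. All arrays hold total RNA of subcutaneous adipose tissue from C57BL/6J mice without a stated genetic change. The mice were put on their diets as weanlings of 3 to 4 weeks. LFC supplied 10% of its calories as fat, while HFC supplied 60% and was also rich in sucrose. The other 27 arrays hold earlier time points of both diets or HFC with the plant preparation KAL-1, of which the early LFC and HFC arrays served for a comparison at the end. Each diet had 30 mice, of which 5 were killed every 3 weeks, and the labels do not say whether an array holds 1 mouse or several, so n counts arrays. Every difference at a single week is therefore 1 array against 1, with no replicate check. A difference over the weeks has the 6 within-week differences as its replicates, and a diet difference that varies with time widens its error.

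White adipocytes store triglyceride taken up from the blood or made in the cell from sugar, and release hormones such as leptin in proportion to their fat store. During prolonged overfeeding they enlarge, the tissue remodels its collagen matrix, and macrophages that take up lipid gather around dying adipocytes. The subcutaneous depot of mice also has vessels, a lymph node in its inguinal part and, nearby, skin muscle and mammary gland. In tissue of this kind, fewer cells of a type and less RNA of a gene per cell cannot be told apart.

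A level below is the log2 spot intensity minus the 75th percentile of its array, so that 0 is the brightness of a fairly bright spot, and a difference is HFC minus LFC on that log2 scale. Of 29411 gene names on the array, 19149 were well above background on at least 6 of the 12 arrays and were tested. The arrays were not equally bright. The 75th percentile was 320 to 1130 intensity units in HFC and 107 to 1040 in LFC, and it was higher in HFC in 5 of 6 weeks (exact permutation p of the signs 0.156, of which the smallest possible is 0.03125). The LFC arrays of Week 9 (204 units) and Week 18 (107 units) were the dimmest. Since a bright spot saturates, the highest level an array could show was 6.19 to 8.12 in HFC and 6.34 to 9.70 in LFC. The 2 arrays of a week were scanned on the same day except at Week 12, where diet and scan day cannot be told apart. The defining transcripts of adipocytes were present on all 12 arrays, as the level of a 10-gene adipocyte list (adiponectin, perilipin and others) was 2.47 to 5.57 in HFC and 2.95 to 5.64 in LFC.

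No gene kept a diet difference over the 6 weeks that passed the test. limma with the week as a block called 0 of 19149 genes (0.0%) at an adjusted p under 0.05, the smallest adjusted p being 0.996. At an unadjusted p under 0.05 there were 611 genes, of which 210 (1.1% of those tested) were higher in HFC and 401 (2.09%) were lower. The median difference of all tested genes was -0.03. HFC was higher in all 6 weeks for 165 genes (0.866% of the 19052 with all 12 levels) and lower in all 6 weeks for 203 genes (1.07%). The 6 HFC levels lay wholly above the 6 LFC levels for 2 genes (0.0105%), Aph1a and Rarres2, and wholly below for 1 gene (0.00525%), Gm10325. Gm10325, named after its values were seen, was well above background on 1 HFC and 5 LFC arrays, so most of its HFC levels are at background and no size is given. Without Week 12, the pair scanned on different days, 0 genes passed and the unadjusted count was 1558. Without Weeks 9 and 18, whose LFC arrays were dim, 0 genes passed and the unadjusted count was 527.

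Single weeks differed strongly, and in different ways. At least 2-fold higher in HFC were 3287 genes at Week 3, 1377 at Week 6, 2037 at Week 9, 4263 at Week 12, 1328 at Week 15 and 4986 at Week 18. At least 2-fold lower were 4304, 2473, 3874, 4490, 1819 and 3259 genes in the same order. With no filter on dim genes the balance was another in some weeks. It was 1757 higher and 9079 lower at Week 6, 2297 and 12659 at Week 9, 10835 and 5372 at Week 12, and 5948 and 8643 at Week 18. The differences of Weeks 3 and 9 correlated across genes with r = 0.57 and those of Weeks 3 and 6 with r = 0.38. The differences of Week 12 ran against those of Week 3 (r = -0.40) and of Week 6 (r = -0.44), although these weeks share no array. Genes are not independent, so these correlations are descriptions without a test. As many as 1493 genes were at least 2-fold higher in HFC at Week 3 and at least 2-fold lower at Week 12, and 1603 did the opposite. The LFC arrays also varied more from week to week, with a median SD over genes of 0.83 against 0.60 in HFC. The SD was larger in LFC for 72.4% of genes.

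**Figure D1:**
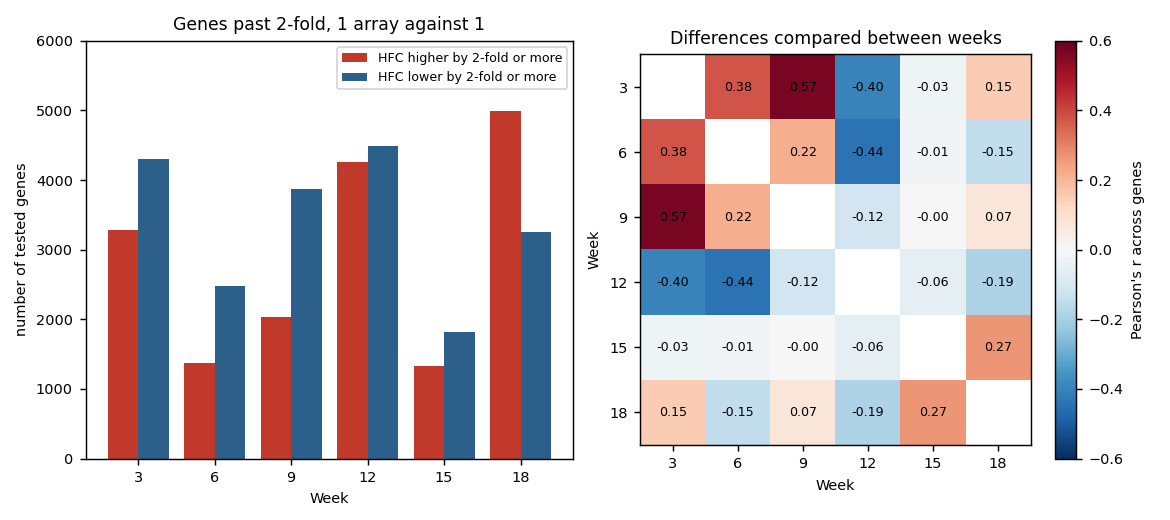
Left, bars starting at 0 give the number of tested genes at least 2-fold higher (red) or lower (blue) in HFC than in LFC at each week, with 1 array of each diet. Right, each cell gives Pearson's r across genes between the HFC minus LFC differences of 2 weeks. The highest value is 0.57 (Weeks 3 and 9) and the lowest is -0.44 (Weeks 6 and 12).

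Leptin (Lep), the hormone by which fat signals its store to the brain, was higher in HFC at Weeks 3, 6, 9 and 18 and lower at Weeks 12 and 15. Its level was -4.35 at lowest, 0.67 at the median and 3.10 at highest in HFC, against -3.23, -1.58 and 1.77 in LFC. The groups overlapped. HFC exceeded LFC by 6.31 at Week 3, 4.87 at Week 6 and 2.61 at Week 9. The difference was -2.05 at Week 12, -1.12 at Week 15 and 0.26 at Week 18. Over the weeks the difference was 1.81 (SE 1.11, limma unadjusted p 0.140). It was 0.91 without Week 3 and 2.59 without Week 12. The adipocyte marker list was also higher in HFC up to Week 9 and lower at Weeks 12 and 15, but it was lower at Week 18, where Lep was not. Its mean level in HFC was 5.57, 5.53, 5.23, 3.80, 2.47 and 4.16 from Week 3 to Week 18, and in LFC it was 3.46, 4.01, 4.93, 5.64, 2.95 and 5.32. The part of these markers in the difference of Lep was not tested.

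The promoters of Lep and of the lipogenic enzyme gene Fasn, whose differences both passed from above 0 at Week 3 to below 0 at Week 12, are shown as RefSeq gives them in build GRCm38.p6. Each is the 250 bases before the start of the transcript, at chr6:29059971-29060220 on the plus strand for Lep and at chr11:120824548-120824797 on the minus strand for Fasn. Capitals mark matches, on either strand, to the C/EBP palindrome TTGCGCAA, the CCAAT box, the E-box CACGTG and the GC box GGGCGG.
Lep: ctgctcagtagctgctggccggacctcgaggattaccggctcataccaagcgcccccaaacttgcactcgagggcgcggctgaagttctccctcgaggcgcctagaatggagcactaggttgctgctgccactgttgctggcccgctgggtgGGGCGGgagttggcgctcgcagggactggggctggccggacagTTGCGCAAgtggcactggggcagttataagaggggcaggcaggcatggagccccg
Fasn: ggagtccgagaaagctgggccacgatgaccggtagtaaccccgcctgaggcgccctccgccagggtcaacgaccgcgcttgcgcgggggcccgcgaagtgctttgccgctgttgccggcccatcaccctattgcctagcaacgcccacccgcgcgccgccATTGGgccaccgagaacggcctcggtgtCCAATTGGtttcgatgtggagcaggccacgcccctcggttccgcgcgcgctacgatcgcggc
The C/EBP palindrome, a sequence bound by a family of adipogenic factors, matched once in Lep, starting 55 bases before the start, and is held by 0.164% of the 32851 windows of this length. The GC box matched once in Lep, 98 bases before the start, and 32.7% of windows hold it. The CCAAT box matched 3 times in Fasn, where 2 of the matches overlap, and 33.8% of windows hold it. The E-box, held by 6.02% of windows, matched in neither. A match is a likeness of letters and says nothing of binding in this tissue.

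Among the 15 genes of adipokines and adipose expansion, 7 had an unadjusted p under 0.05 with HFC higher and 1 with HFC lower, against 1.1% and 2.09% of all genes. This list, like the others below, was drawn up with earlier results of these arrays known, so its counts are no independent evidence. Its median difference was 0.81. Mest, an imprinted gene of the hydrolase family whose level in fat is known to track expansion, was at 0.39 to 4.62 in HFC (median 2.92) and at -0.03 to 1.48 in LFC (median 0.58). HFC was higher by 4.65, 2.35, 2.82 and 1.84 at Weeks 3, 6, 9 and 12, with a difference of -0.32 at Week 15 and 1.21 at Week 18. The groups overlapped through the HFC arrays of Weeks 15 and 18. The difference was 2.09 (SE 0.58, limma unadjusted p 0.00713, adjusted p 0.996), so it did not pass once all genes were counted. Sfrp5, a secreted inhibitor of Wnt signalling, gave 1.44 (SE 0.50) with HFC higher in 5 of 6 weeks, but -0.20 under normexp background correction. Only 4 LFC arrays measured it well above background. The imprinted genes Plagl1 (1.53, SE 0.57) and Peg3 (1.47, SE 0.59), the growth factor Bmp3 (1.54, SE 0.59), the peptide hormone apelin Apln (1.30, SE 0.48) and Itih5 (0.81, SE 0.29) were the others. Peg3 was higher in 4 of 6 weeks and each of the rest in 5 of 6.

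Cfd, which encodes adipsin, the complement factor D made by adipocytes, was the gene of the list with HFC lower. Its levels were 3.99 to 7.11 in HFC (median 6.29) and 4.81 to 8.48 in LFC (median 6.78), with a fitted difference of -0.80 (SE 0.27, limma unadjusted p 0.0185). Under quantile normalization that difference was -0.20. The spot was saturated on the HFC arrays of Weeks 3, 6, 9 and 12 and on the LFC arrays of Weeks 3 and 12, so those levels are lower bounds and the sign of the difference is not settled at these 4 weeks. At Weeks 15 and 18, where neither array was saturated, the differences were -0.81 and -1.37. Adiponectin (Adipoq) went from 1.66 at Week 3 and 2.55 at Week 6 to -1.76 at Week 12, and resistin (Retn) from 4.12 to -4.37 over the same span. The natriuretic peptide clearance receptor gene Npr3 passed from 4.29 at Week 3 to -1.55 at Week 15. None of these 3 had an unadjusted p under 0.05, and the Adipoq spot was saturated on the HFC arrays of Weeks 3 and 6 and the LFC array of Week 12.

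**Figure D2:**
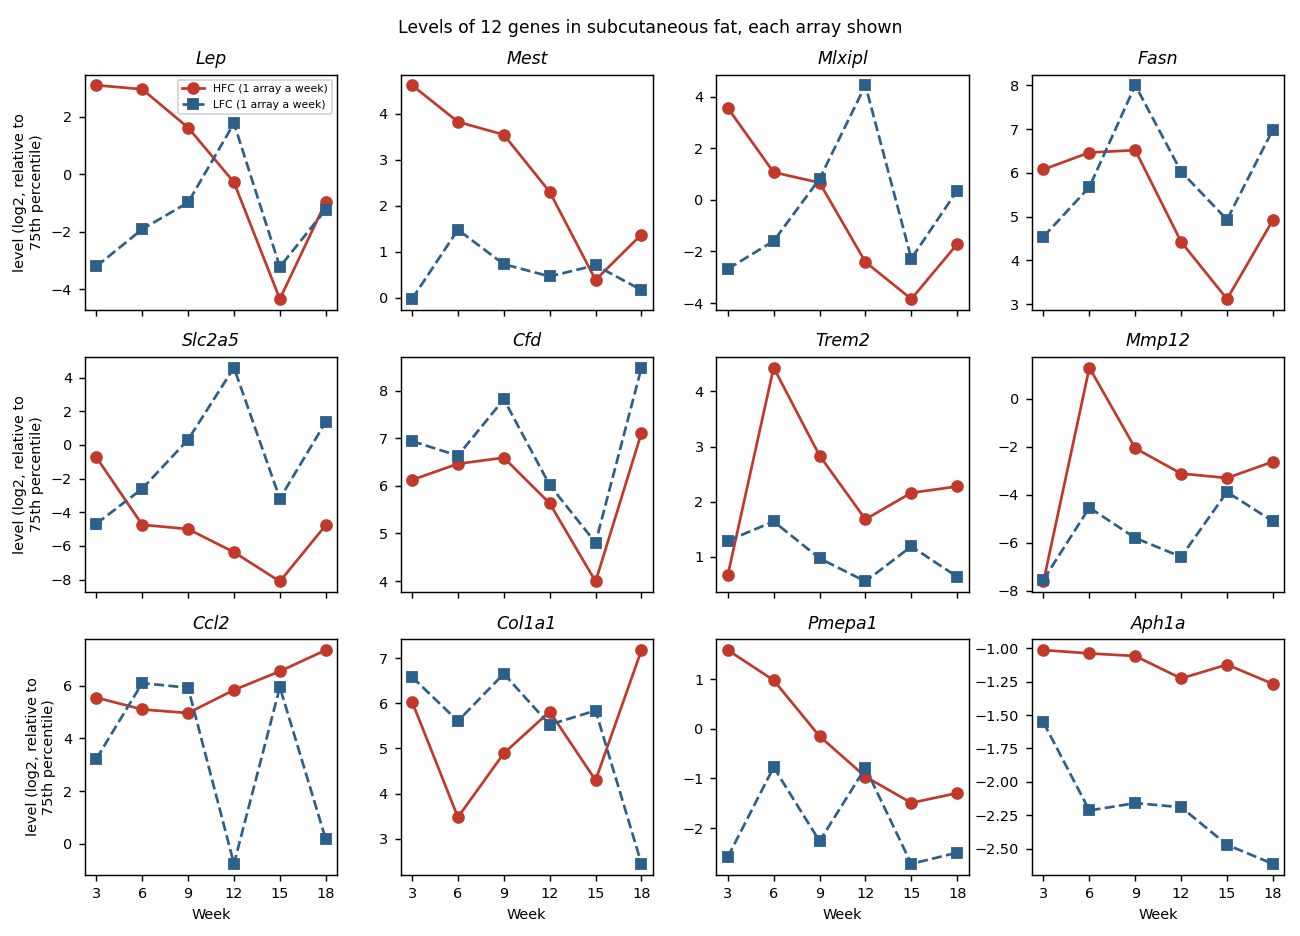
Each panel plots the level of 1 gene (log2, relative to the 75th percentile of the array) against the week, with HFC as red circles and LFC as blue squares, 1 array a point and no error bar. Lep and Mlxipl lie above LFC at Week 3 and below it at Week 12, Trem2 and Mmp12 lie above LFC from Week 6 on, and the 6 Aph1a levels of HFC (-1.27 to -1.01) all lie above those of LFC (-2.61 to -1.56).

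The 13 genes of fatty acid synthesis, which turn sugar into fatty acids, held together within a week and turned over between weeks. All 13 were higher in HFC at Weeks 3 and 6, 3 were higher at Week 9 and none at Week 12. At Week 15 it was 2 of 13 and at Week 18 it was 1. The median difference was 2.76, 1.43, -1.01, -3.82, -0.72 and -1.57 from Week 3 to Week 18, where the medians of all genes were between -0.09 and 0.27. Over the weeks 0 of 13 had an unadjusted p under 0.05 in either direction, and the median was -0.63. Mlxipl, the sugar-sensing factor ChREBP, ranged from -3.84 to 3.56 in HFC (median -0.52) and from -2.68 to 4.44 in LFC (median -0.62), and its difference went from 6.24 at Week 3 to -6.85 at Week 12. Fasn, the fatty acid synthase, differed by 1.54, 0.79, -1.48, -1.60, -1.81 and -2.07 from Week 3 to Week 18. Its spot was saturated on the HFC arrays of Weeks 3 and 6 and the LFC array of Week 12. Acaca (acetyl-CoA carboxylase) went from 3.85 to -6.70 and Acly (ATP-citrate lyase) from 2.06 to -5.44 between Weeks 3 and 12. Leaving out Week 12, the difference over the weeks was above 0 for Mlxipl (1.02) and Acaca (0.13).

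The fructose transporter gene Slc2a5 was well above background on all 6 LFC arrays but on only 3 HFC arrays, so it passed the filter on dim genes through LFC, and the size of its difference was not measured on the other 3 pairs. Its levels were -8.11 to -0.73 in HFC (median -4.89) and -4.69 to 4.59 in LFC (median -1.14). HFC was higher at Week 3 and had the lower spot at all later weeks. The fitted mean difference depended on the background, being -4.26 with the processed signal and -2.55 under normexp correction. The elongase gene Elovl6 was also higher at Week 3 (2.43) and lower later, by differences from -0.86 at Week 6 to -6.31 at Week 12, where the LFC spot was saturated (mean -2.10, SE 0.98, limma unadjusted p 0.0644). Without Week 12 its mean was -1.25. Elovl3, an elongase of brown and beige fat, could be measured above background on 3 LFC arrays only and was not tested. No HFC array measured it well above background, so no size is given. The desaturase gene Scd3 had the lower spot in HFC in all 6 weeks, but only 2 HFC and 5 LFC arrays measured it well above background, so no size is given, and the Scd genes are so alike that which of them its probe reads is uncertain. Scd1, the main desaturase of white fat, went from 2.78 at Week 3 to -2.47 at Week 18, with the spot saturated on the HFC arrays of Weeks 3 and 6 and the LFC array of Week 12.

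**Figure D3:**
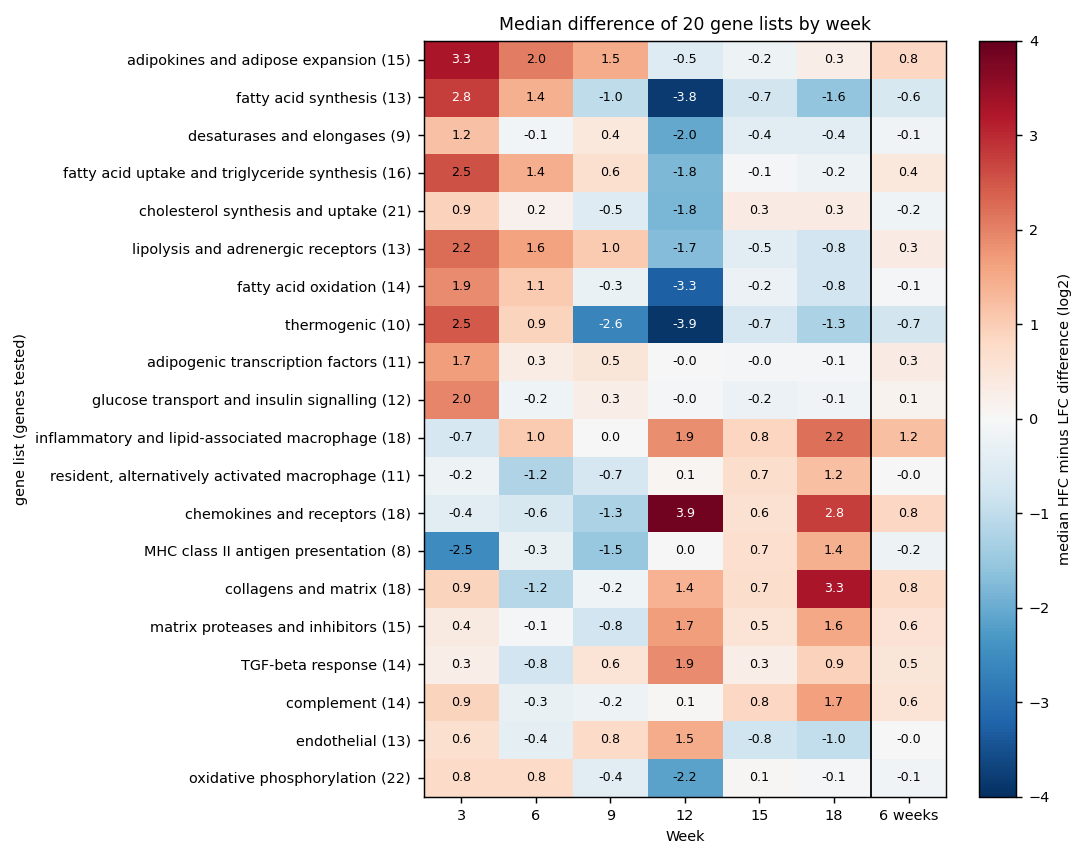
Each cell is the median HFC minus LFC difference (log2) of the tested genes of a list at 1 week, and the last column is the median of their mean differences over the 6 weeks. The lists of adipocyte lipid metabolism are above 0 at Week 3 and below 0 at Week 12 (fatty acid synthesis 2.76 and -3.82), whereas the inflammatory macrophage list is -0.67 at Week 3 and 2.20 at Week 18.

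Lists of the other adipocyte functions were also above 0 at Week 3 and below 0 at Week 12, but they differed in between. The median of 16 genes of fatty acid uptake and triglyceride synthesis was 2.54 at Week 3, 0.65 at Week 9 and -1.80 at Week 12. For the 13 genes of lipolysis and adrenergic receptors it was 2.23, 1.05 and -1.73. The 14 genes of fatty acid oxidation were at 1.90, -0.28 and -3.28 in these weeks. Of the 22 subunits of oxidative phosphorylation, which make up the respiratory chain, 22 were higher in HFC at Week 6, 0 at Weeks 9 and 12 and 14 at Week 15. None of the genes of these 4 lists had an unadjusted p under 0.05 over the weeks. The thermogenic list, genes of heat-producing brown and beige adipocytes, had 12 members, of which 10 were tested. Its median was 2.46 at Week 3, -2.63 at Week 9 and -3.91 at Week 12. Ucp1, the uncoupling protein of the heat-producing mitochondria, was higher in HFC by 3.87 at Week 3 and lower at Weeks 9 (-6.78) and 12 (-4.30), and it differed by -0.41 to 0.23 at Weeks 6, 15 and 18. Cidea, a lipid droplet protein of the same cells, was at -1.39 to 4.87 in HFC (median 0.30) and at -2.14 to 6.05 in LFC (median 3.57). Its mean difference was -2.23 (SE 1.25), and its highest LFC level, at Week 12, came from a saturated spot.

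Most genes of the inflammatory and lipid-associated macrophage list had the higher level in HFC at Weeks 6, 12, 15 and 18. Of 20 members, 18 were tested, and all 18 had a mean difference above 0. At an unadjusted p under 0.05, 5 were higher (Trem2, Gpnmb, Mmp12, Lgals3 and Saa3) and 0 lower, where 1.1% of all genes were higher. The list median was 1.21. By week, 4 of 18 were higher at Week 3, 13 at Week 6, 9 at Week 9, 15 at Week 12, 18 at Week 15 and 16 at Week 18. The median differences of Weeks 12 (1.86) and 18 (2.20) were the largest of the 6, and in these weeks the LFC arrays stood apart. The mean level of the list was -2.0 on the LFC array of Week 12 and -0.98 on that of Week 18, against -0.10 to 0.34 on the other 4, while HFC had 0.55 and 0.81 in these weeks and -0.66 to 1.87 in the others. Trem2, a lipid-sensing receptor of these macrophages, was at 0.66 to 4.43 in HFC (median 2.22) and at 0.55 to 1.64 in LFC (median 1.08). The HFC level at Week 3, the lowest of its diet, was the only one within the LFC range. The difference was -0.63 at Week 3 and 2.79, 1.86, 1.13, 0.97 and 1.64 afterwards (mean 1.29, SE 0.43, limma unadjusted p 0.0172). Gpnmb, a glycoprotein of lipid-laden macrophages, had a mean difference of 1.82 (SE 0.60) and was also lower at Week 3 only (-0.81). Mmp12, the macrophage elastase, reached 1.30 in HFC at Week 6 against -4.53 in LFC. Its mean difference was 2.68 (SE 0.74, limma unadjusted p 0.00685), but 0.50 under normexp background correction, and it was well above background on 5 HFC and 2 LFC arrays. Lgals3 (galectin 3) differed by 1.24 (SE 0.47) and Saa3, an acute-phase protein made in fat, by 1.47 (SE 0.49), each with HFC higher in 5 of 6 weeks.

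Of the general macrophage genes, Cd68, a lysosomal protein of macrophages, gave 1.07 (SE 0.48), with HFC above LFC in 4 of 6 weeks, and 0.68 without Week 18. Itgax (CD11c) had 1.17 (SE 0.68) in 5 of 6 weeks, and 0.63 without Week 6. Emr1, a surface receptor of mouse macrophages now named Adgre1, had 0.26 (SE 0.35) in 4 of 6 weeks, and 0.051 without Week 18. None of these 3 had an unadjusted p under 0.05. Of the 11 tested genes of resident, alternatively activated macrophages, 5 had a mean difference above 0, and the median was -0.01, since the weeks went opposite ways. At Week 6, 2 of 11 were higher in HFC (median -1.20, 6 at least 2-fold lower), whereas at Week 15 it was 9 of 11 and at Week 18 all 11 (median 1.20, 6 at least 2-fold higher). The chitinase-like gene Chi3l3 (now Chil3) was the 1 of them with an unadjusted p under 0.05, with a difference of -1.47 (SE 0.59), where 2.09% of all genes were lower.

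Complement receptor C3ar1, which binds the fragment C3a and sits on myeloid cells, was higher in HFC in all 6 weeks, by 0.35 to 1.77. Its mean difference was 0.97 (SE 0.28, limma unadjusted p 0.00832), but it was -0.02 under normexp background correction. It was the 1 of 14 tested genes of the complement list with an unadjusted p under 0.05, where 1.1% of all genes were higher. Cfd, described above, was not in that list.

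The only differences that passed a test were those that changed with the week, and nearly all were genes of lymphocytes. A straight line through the weekly differences called 29 of 19149 genes (0.151%) at an adjusted p under 0.05, all with the difference rising from Week 3 to Week 18 and none (0.0%) falling. The slopes were 0.45 to 0.78 log2 units per week (median 0.56). All 29 were lower in HFC at Weeks 3, 6 and 9 and higher at Week 18, with a median difference of -6.45 at Week 3 and 2.17 at Week 18. Many of them were not well above background on every array, down to 2 HFC and 4 LFC arrays for LOC100045791. These slopes and differences therefore rest in part on spots at background. By the name or description on the array, 24 were immunoglobulin or T-cell receptor segments. Segments of one such family can be nearly alike, so which of them a probe reads is uncertain. Igk-V21-4 (now Igkv3-4), a light chain segment, had a level of -5.74 to -0.37 in HFC and of -2.61 to 1.07 in LFC. Its difference went through -5.86, -5.47, -3.47, -1.79, 0.47 and 2.02 (slope 0.56 per week, SE 0.05, limma adjusted p 0.0473). The 2 other genes with the smallest p, ENSMUST00000103498 (slope 0.52) and LOC675659 (slope 0.60), are described on the array as heavy chain sequences. Each was well above background on 4 HFC and 6 LFC arrays.

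The other 5 called genes were named after their values were seen, and 4 of them are lymphocyte genes of known function. Cd8a, the coreceptor of cytotoxic T cells, was at -7.23 to -1.78 in HFC and at -5.97 to 2.06 in LFC, and its difference was -7.51 at Week 3 and 4.15 at Week 18 (slope 0.78 per week, SE 0.08, limma adjusted p 0.0473). Tnfrsf13c, the BAFF receptor of B cells, went from -8.25 to 3.12, the T-cell membrane protein gene Ms4a4b from -5.30 to 5.24, and Dtx1, a regulator of Notch signalling, from -4.97 to 3.12. The remaining one, EG211331, has no current symbol here.

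The list of B and T lymphocyte markers, 13 genes on the array, moved in the same way. All 12 of its tested genes were lower in HFC at Weeks 3, 6 and 9 and higher at Week 18, all 12 had an unadjusted p under 0.05 for a rising slope, against 9.14% of all genes, and 0 passed after adjustment. Its mean level was -4.23, -5.10, -4.33, -3.36, -1.44 and -1.44 in HFC from Week 3 to Week 18, and 2.24, -2.74, 0.04, -3.91, -2.66 and -3.28 in LFC. The LFC arrays of Weeks 3 and 9 stood out at the top. Each of the 13 genes was well above background on at least 1 array. The part of lymphocyte content in the called genes was not tested. The calls were also fragile. The count was 0 without Week 3, without Week 9, without Week 15 or without Week 18, 38 without Week 6 and 106 without Week 12. It was also 0 with normexp correction, with quantile normalization or with no filter on dim genes.

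**Figure D4:**
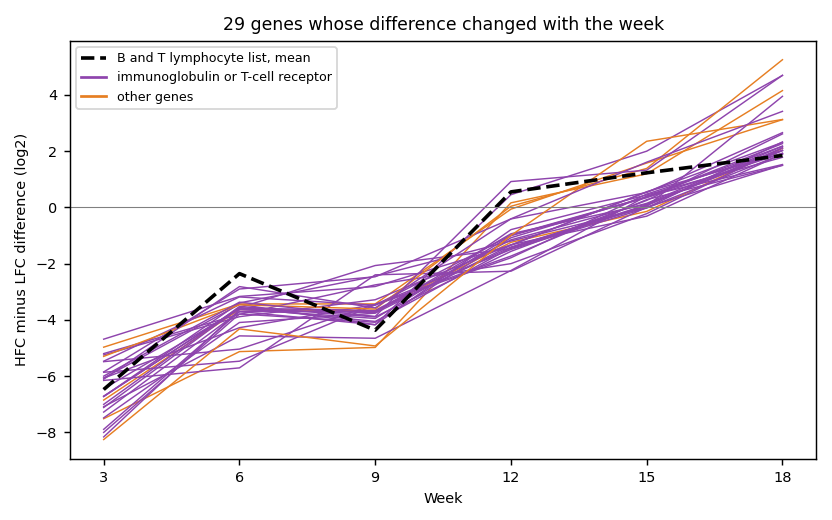
Each thin line is the HFC minus LFC difference (log2) of 1 of the 29 called genes by week, purple for immunoglobulin or T-cell receptor segments (24) and orange for the other 5, and the dashed black line is the mean over the lymphocyte marker list. All 29 lines are below 0 at Weeks 3, 6 and 9 and above 0 at Week 18.

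MHC class II genes, by which B cells and macrophages present antigen, followed the lymphocyte lists. None of the 8 was higher in HFC at Week 3, 1 at Weeks 6 and 9, 4 at Week 12 and all 8 at Weeks 15 and 18. The median difference was -2.51 at Week 3 and 1.43 at Week 18. No gene had an unadjusted p under 0.05 over the weeks, and 6 of 8 had one for a rising slope, against 9.14% of all genes.

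Other tissues also left their marks. The mean level of 12 skeletal muscle genes (actin, myosins, troponins) was -4.09 to 0.08 in HFC (median -3.13) and -3.01 to 1.15 in LFC (median -0.58). At Week 3 all 11 tested muscle genes were lower in HFC (median -3.73), at Week 9 it was 10 of 11 (median -4.17), and at Week 18 9 of 11 were higher (median 1.81). All 4 tested red blood cell genes had a mean difference below 0 (median -0.88). Hbb-b1, a globin, and Slc4a1, the anion exchanger of the red cell membrane, had an unadjusted p under 0.05 and were lower in HFC in all 6 weeks, where 2.09% and 1.07% of all genes met these criteria. No Slc4a1 spot was saturated (-1.06, SE 0.40), but the Hbb-b1 spot was saturated on both arrays of Weeks 3, 6, 9 and 12 and the HFC array of Week 18. The sign for Hbb-b1 is therefore settled at Week 15 only, so neither its p nor its 6 weeks can be read as a result. Of the mammary and simple epithelium list, 8 of 12 were tested and 6 of these had a mean difference above 0 (median 0.29), with 0 of 8 higher at Week 6 (median -2.56) and 8 of 8 at Week 15 (median 2.13), while the milk protein genes Csn2 and Csn3 were well above background on no array. In the skin list, 5 of the 9 genes on the array were tested and 3 were above 0 (median 0.32). Of the 7 liver genes on the array 3 were tested, and their median was 4.57 at Week 3, -5.09 at Week 18 and -0.28 over the weeks. The mean level of the liver list was -2.55 on the HFC array of Week 3, -0.21 on the LFC array of Week 18 and -6.73 to -5.11 on the other 10 arrays. Of the 4 Y-linked genes 3 had a mean above 0 (median 0.18). The 2 X-inactivation genes were too dim to test. For the 12 cell cycle genes the median was 0.03 over the weeks, but 0 of 12 were higher in HFC at Week 3 (median -2.33, 11 at least 2-fold lower) and 10 of 12 at Week 18 (median 1.06). For a rising slope, 8 of 12 had an unadjusted p under 0.05, against 9.14% of all genes. The part of these lists in the weekly differences above was not tested.

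**Figure D5:**
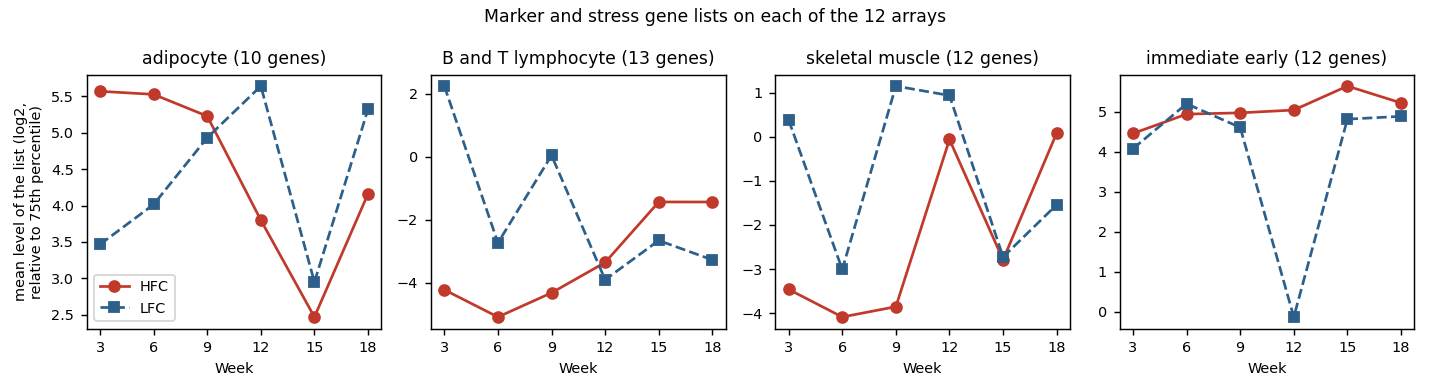
Each panel plots the mean level (log2, relative to the 75th percentile) of a gene list on the HFC (red circles) and LFC (blue squares) array of each week, without error bars since each point is 1 array. The adipocyte list is higher in HFC at Weeks 3 to 9 and lower afterwards, the lymphocyte list is highest on the LFC arrays of Weeks 3 and 9, and the immediate early list is at -0.13 on the LFC array of Week 12 and at 4.08 to 5.64 on all others.

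Week 12 held a further contrast, in genes that respond within minutes to hours. The mean level of 12 immediate early genes was 4.08 to 5.64 on 11 of the 12 arrays and -0.13 on the LFC array of Week 12. There Fos, a transcription factor of the immediate response, was at 5.05 in HFC and -2.40 in LFC, and Egr1 at 5.80 and 0.28. The list of 6 heat shock genes was at 2.98 on that array and at 4.47 to 6.05 elsewhere. The chemokine gene Cxcl1 was at 6.10 in HFC and -4.17 in LFC in that week. The HFC spots of Egr1 and Cxcl1 were saturated there, so their levels are lower bounds. Ccl2, the chemokine that attracts monocytes, was at 4.96 to 7.35 in HFC (median 5.70), while LFC had -0.76 at Week 12, 0.18 at Week 18 and 3.23 to 6.10 otherwise. Its mean difference was 2.46 (SE 1.20, limma unadjusted p 0.0751), with the spot saturated on the HFC arrays of Weeks 12 and 15 and the LFC array of Week 15. It was 1.51 without Week 18, 1.63 without Week 12 and 0.91 with array weights. Of 18 tested chemokine and receptor genes, 16 were higher in HFC at Week 12 and 17 at Week 18, against 4 at Week 9. None of them had an unadjusted p under 0.05 over the weeks. This is also the week whose arrays were scanned on different days.

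Matrix genes differed most between the diets at Week 18, where the LFC array stood apart. The mean level of 18 collagen and matrix genes was 1.16 on that array and 2.39 to 3.64 on the other LFC arrays, while HFC had 4.16 at Week 18, 4.10 at Week 15 and 2.43 to 3.71 before. Of the 18 genes, 17 were higher in HFC at Week 18 (median 3.26), against 1 at Week 6 (median -1.15). It was 15 at Week 12 (median 1.40), 15 at Week 15 (median 0.71), 12 at Week 3 and 8 at Week 9. Col1a1, the main chain of type I collagen, differed by 4.74 at Week 18, where its LFC level of 2.44 was the lowest of the 12, and by -2.13 to 0.29 at the other weeks. Its mean was -0.16 (SE 0.86), and the spot was saturated on the HFC arrays of Weeks 3 and 12 and the LFC array of Week 15. Col3a1 was saturated on the HFC arrays of Weeks 3, 12, 15 and 18 and the LFC array of Week 15. At Weeks 6 and 9, where neither array was saturated, it differed by -1.85 and -1.33. At Week 18 HFC was the higher, with the LFC spot not saturated, so the size there is a lower bound. Without Week 18 the mean of Col3a1 was -0.66. Col6a3, a collagen of the layer around adipocytes, was saturated on the HFC array of Week 12 and had a mean of 0.98 (SE 0.67), which was 0.38 without Week 18 and 0.30 with array weights. Over the weeks 3 of 18 were higher at an unadjusted p under 0.05 and 0 lower, against 1.1% and 2.09% of all genes. Postn (periostin) was higher in all 6 weeks, by 0.21 to 1.97 (mean 0.90, SE 0.31). Col4a1 of the basement membrane had 1.16 (SE 0.46) and Col6a2 had 1.28 (SE 0.54). The LFC array of Week 18 was the dimmest of all 12.

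Of the 14 genes of the TGF-beta response, 12 had a mean difference above 0 (median 0.50). Pmepa1, an inhibitor of the pathway that induces it, was at -1.49 to 1.59 in HFC (median -0.56) and at -2.72 to -0.77 in LFC (median -2.38). HFC was higher by 4.17 at Week 3 and lower at Week 12 only, by a difference of -0.18 (mean 1.72, SE 0.52, limma unadjusted p 0.0104). Of 15 matrix proteases and inhibitors, 11 had a mean difference above 0, and the median was 0.59. Of all tested genes 9031 were above 0 and 10118 below. In each of these 2 lists, 2 genes were higher at an unadjusted p under 0.05 and 0 lower, against 1.1% and 2.09% of all genes.

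Among the lists not yet described, the median was 0.34 for 11 adipogenic transcription factors and 0.14 for 12 genes of glucose transport and insulin signalling, with 1.68 and 1.95 at Week 3 and -0.23 to 0.49 afterwards. In the next 3 lists a median near 0 came from weeks that went both ways. The 13 endothelial genes had -0.01 over the weeks, with 1.48 at Week 12 (10 at least 2-fold higher) and -0.99 at Week 18. The 21 genes of cholesterol synthesis and uptake had -0.17, with 0.93 at Week 3 (18 higher) and -1.84 at Week 12 (15 at least 2-fold lower). The 9 desaturases and elongases had -0.13, with 1.17 at Week 3 and -2.04 at Week 12. Pparg, the master factor of adipocytes, went from 3.26 at Week 3 to -1.95 at Week 18, and the insulin-regulated transporter gene Slc2a4 from 2.82 at Week 3 to -4.46 at Week 12, where the LFC spot was saturated. The insulin receptor gene Insr passed from 2.43 at Week 3 to -1.98 at Week 18. Of the 11 tested genes of the circadian clock, 10 had a mean difference above 0 and 4 an unadjusted p under 0.05 with HFC higher, against 1.1% of all genes (median 0.78). Dbp, a clock output factor, was higher in HFC in 5 of 6 weeks (mean 1.37, SE 0.40).

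Aph1a and Rarres2 were the genes whose 6 HFC levels all lay above the 6 LFC levels. Aph1a, a subunit of the gamma-secretase complex that cuts Notch and other membrane proteins, was at -1.27 to -1.01 in HFC (median -1.09) and at -2.61 to -1.56 in LFC (median -2.20). The difference was 1.08 (SE 0.24, limma unadjusted p 0.00229, adjusted p 0.996), and its 2 tested probes gave 0.93 and 1.08. Under normexp background correction it was 0.45. At the earlier time points it was -0.23. Rarres2, which encodes the adipokine chemerin, was at 5.50 to 6.52 in HFC (median 5.76) and at 3.61 to 5.47 in LFC (median 5.11), and the groups nearly touched at Week 9 (mean 0.95, SE 0.41). They were farthest apart at Week 18, with 6.52 in HFC and 3.61 on the LFC array, the dimmest of the 12. The HFC spot of Rarres2 at Week 3 was saturated, so that level is a lower bound.

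By size, 8 genes were higher in all 6 weeks with an unadjusted p under 0.01 and well above background on all HFC arrays. They were D430019H16Rik (2.31, SE 0.52), Anxa8 (1.59, SE 0.47), E030003E18Rik (1.45, SE 0.32), Anxa1 (1.23, SE 0.36), Mtmr10 (1.15, SE 0.34), Aph1a, C3ar1 and Iqgap2 (0.88, SE 0.24). Anxa1, a phospholipid-binding protein that restrains inflammation, was at 5.44 to 6.17 in HFC (median 5.69) and at 3.00 to 5.52 in LFC (median 4.76). E030003E18Rik (-0.17), C3ar1 (-0.017) and Iqgap2 (-0.45) turned below 0 under normexp background correction, as did Kcne1l (1.50, SE 0.40), a potassium channel subunit gene that was higher in all 6 weeks. Kcne1l gave -0.22 under that correction, and 3 LFC arrays measured it well above background.

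Among the genes that were lower in HFC in all 6 weeks, with an unadjusted p under 0.01 and well above background on all LFC arrays, the 10 with the largest differences were Gm10693 (-2.30, SE 0.50), the sweet and umami receptor gene Tas1r3 (-2.14, SE 0.49), Banf2 (-1.95), Lcn6 (-1.94), 1300017J02Rik (-1.67), Tmem59l (-1.62), Dirc2 (now Slc49a4, -1.61), 9230107M04Rik (now Bsph2, -1.51), the lipid transfer protein gene Stard10 (-1.32) and 1700019O17Rik (now Tex44, -1.29). For Dirc2 a second probe gave 0.91. Of these 10, Dirc2 was the only gene with a mean level above 0 in both diets, and Gm10693, Banf2, 1300017J02Rik, Tmem59l and 1700019O17Rik were well above background on 3 to 5 of the 6 HFC arrays, so their sizes rest in part on spots at background. With normexp correction the differences of Gm10693 (-1.41) and Banf2 (-1.18) were smaller.

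Compared with the earlier time points of the same diets (Day 6, Day 10, Day 14 and Week 0, 8 arrays), the diet difference of Weeks 3 to 18 did not pass a test of change for any gene. A paper that used the liver arrays of this experiment counted weeks from Day 14, which puts Day 14 and Week 0 at the same time. By that count Weeks 3 to 18 do not run from the start of the diets. limma called 0 of 19872 genes (0.0%) for late minus early, with 380 at an unadjusted p under 0.05. The 3 genes with the smallest p were Tlr12, a Toll-like receptor gene, with -1.66 late against 1.60 early, Id3, an inhibitor of differentiation factors, with 0.90 against -0.83, and Dbp, with 1.37 against -1.03. Lep had 1.81 late and 2.09 early, Mest 2.09 and 0.37, and Trem2 1.29 and 0.97.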

How the data were processed

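Total RNA of 12 tissue samples was measured on Agilent 1-colour arrays. The authors deposited scanner files whose spot intensity values, per the file headers, came from Agilent Feature Extraction 10.5.1.1 (9.1 in the submitters' processing notes) with background subtraction and no scaling between arrays. A table of log2 ratios to LFC, the authors' own comparison, was not used.

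Processed intensities were put on the log2 scale, the 75th percentile of each array was subtracted, flagged outlier spots were left out and spots of a probe averaged. The brightest probe stood for a gene name. Genes well above background on at least 6 of 12 arrays entered a linear model (R 4.3.3, limma 3.58.1) that took the week as a block, with Benjamini-Hochberg adjustment, a threshold of 0.05 and two-sided tests. A slope of the difference per week and late minus early (20 arrays) were fitted likewise, and the code was tested on simulated data. Pairing is by week. The number of arrays limits precision, and slide and scan day were read as possible batches.

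The rule named 41 fixed genes, up to 10 genes a direction with an adjusted p under 0.05 and 1 sign in all weeks (where fewer than 5 passed, an unadjusted p under 0.01 and well above background on all arrays of the higher diet), list members with an unadjusted p under 0.05, 5 a direction with the widest gap between groups and well above background on all arrays of the higher diet, and 3 genes for the slope and for late minus early. The members, 20 function lists and 13 marker lists were chosen with earlier results of these data known. Of the 29411 names, 20048 are current RefSeq symbols (GRCm38.p6) and 3541 matched 1 synonym. Promoters came from the same reference, whereas array coordinates use another build and are not given. One gene that the rule named is not reported here. Alternatives are in the closing section.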

Additional observations from a re-analysis of the deposited data

Results flagged for a closer look

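In each diet, the array farthest from the other 5 was compared with the critical value of Dixon's ratio for 156 sets of levels, and 13 sets (8.33%) passed. Chance passes about 1 in 20 of independent sets, but these sets share arrays, so their share is a description only. The HFC array of Week 3 stood above the other HFC arrays for Elovl6 (2.21), Ucp1 (3.37), Ppargc1a (0.31) and Anxa8 (2.53), and its cholesterol synthesis list was also high (0.68). The LFC array of Week 12 stood above the other LFC arrays for Ppargc1a (0.96), Irs1 (2.85) and the cholesterol list (1.38), and below them for the immediate early list (-0.13). Insr was low on the HFC array of Week 18 (-1.72). On the LFC array of Week 18, Col1a1 was low (2.44) and the liver list was high (-0.21). The heat shock list was high on the HFC array of Week 15 (6.05).

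The difference between the diets changed with the week for 29 genes, by the limma test of the slope itself at an adjusted p under 0.05. The lymphocyte markers that moved with them are given in the results, and their part was not tested.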

How the results depend on the processing

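The count of 0 genes at an adjusted p under 0.05 over Weeks 3 to 18 was the same under all alternatives run. Its unadjusted count of 611 became 2270 with normexp correction, 1231 with no filter, 322 for genes well above background on all arrays, 1343 with array weights, 399 with no week block (no pairing by week), 1552 with the scan day as a block and 1062 in a fit of 30 arrays, and it was 367 to 1558 leaving out a week. normexp moved the median of all genes to -0.15. For the slope the adjusted count of 29 became 0 with normexp, quantile or no filter and was 0 to 106 leaving out a week, and the unadjusted count of 2397 became 1536 with normexp and was 1316 to 3018 leaving out a week. For late minus early the unadjusted count of 380 became 872 with no filter and was 267 to 638 leaving out a time point.

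Of 56 named genes followed, 37 kept their sign under every setting run for them, which was 19 or 20 settings a gene. Signs turned with normexp for Sfrp5 (-0.20), Insr (-0.080), Col1a1 (0.066), Kcne1l (-0.22), E030003E18Rik (-0.17), C3ar1 (-0.017) and Iqgap2 (-0.45). Col1a1 also turned with quantile normalization (0.13) and the mean of probes (0.33). With the scan day as a block Acaca (0.13), Mlxipl (1.02), Scd1 (0.017), Ppargc1a (0.12), Slc2a4 (0.34) and Timp1 (-0.085) turned. The Week 12 arrays were each alone on their scan day, so this block drops Week 12 and repeats that leave-out. With array weights Mlxipl (0.48), Slc2a4 (0.31), Col3a1 (-0.35) and Timp1 (-0.21) turned. Without Weeks 9 and 18, an alternative chosen after seeing the data, Mlxipl (0.12), Scd1 (0.12) and Col3a1 (-0.49) turned. Leaving out a week gave values on both sides of 0 for Adipoq -0.15 to 0.72, Retn -0.22 to 1.48, Npr3 -0.037 to 1.22, Acaca -1.99 to 0.13, Srebf1 -0.48 to 0.68, Mlxipl -1.59 to 1.02, Scd1 -0.92 to 0.13, Ppargc1a -1.19 to 0.12, Slc2a4 -1.11 to 0.34, Insr -0.42 to 0.46, Pparg -0.60 to 0.45, Col1a1 -1.14 to 0.24, Col3a1 -0.66 to 0.45 and Timp1 -0.085 to 0.95. The cause of these changes was not tested. The slide as a random block could not be fitted, since 1 slide held 2 of the 12 arrays and all others 1, and the authors' table of ratios was not run. Of genes with 2 or more tested probes, 3900 of 5897 had all probes on 1 side of 0. Dim arrays and saturated spots limit low and high levels.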
